A study of Rattus norvegicus with 30 samples.

Results

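The genes described here encode the nuclear subunits of the mitochondrial respiratory chain, complexes I to V, as measured on an expression microarray in rat hepatocytes given WY-14643, a synthetic ligand of the nuclear receptor PPARα. Members were all probe sets whose single gene symbol in the platform annotation starts with Ndufa, Ndufb, Ndufc, Ndufs, Ndufv, Sdha, Sdhb, Sdhc, Sdhd, Uqcr, Cox4, Cox5, Cox6, Cox7, Cox8 or Atp5, together with Cyc1 and Cycs; assembly factors named Ndufaf were left out. The rule found 95 probe sets for 85 genes, among 31042 probe sets for 14218 genes on the array. Of these, 91 probe sets for 83 genes passed a filter on low signal, and the 83 genes comprised 76 subunit genes and 7 genes that the prefixes take in but that name no subunit (Sdhaf1, Sdhaf2, Sdhaf3, Sdhaf4, Cox7a2l, Atp5if1 and Cox6c-ps1). Cox8b and Cox6b2 did not pass, nor did the second probe sets of Sdhaf2 and Ndufa9. Another 9 probe sets that list several symbols, among them those of Cycs, Cox7a2, Atp5mc1 and Atp5mc2, were not members, so the electron carrier cytochrome c was not analysed here.

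Primary hepatocytes of male Sprague Dawley rats had been bought frozen from a single supplier, plated on collagen under a Matrigel overlay and dosed on day 3 of culture. The 6 groups were WY-14643 at 200 µM, WY-14643 at 8 µM and vehicle, labelled as 1% DMSO, each harvested after 48 h and after 24 h, with 5 wells and 5 arrays per group and 30 arrays in all. The labels call the wells independent cultures and do not say whether they came from different animals, so the p-values below measure the spread between wells. The labels describe the dosing stocks as prepared in DMSO, and they do not settle how much DMSO the treated wells received. Replicate numbers follow the order of deposition, and they are not stated to pair wells across groups.

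As background, complex I (NADH dehydrogenase) and complex II (succinate dehydrogenase) pass electrons to ubiquinone, complex III passes them on to cytochrome c, complex IV reduces oxygen, and complex V makes ATP from the resulting proton gradient. All but complex II also hold subunits encoded by mitochondrial DNA. In rodent liver, PPARα is best known for raising the enzymes of fatty acid oxidation, whose reduced cofactors enter the chain at complex I and, through the electron transfer flavoproteins, at ubiquinone.

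One array stood apart from the rest. On the array of vehicle well 4 at 48 h the median signal was 764, against 383 to 439 on the other 29 arrays, and its median correlation with the arrays of its own group was 0.896, against 0.973 to 0.98 for the others. Its bright probe sets read low and its dim ones high. Compared with the other 4 vehicle wells at 48 h, all genes with a mean log2 signal between 14 and 16 were lower by a median of -0.48 log2 units (n = 685), and those between 8 and 10 were higher by 0.73 (n = 4212). Respiratory chain genes are bright (58 of the 76 subunit genes average at least 14), and 72 of the 76 were lower on this array, by a median of -0.51. Counts, medians and log2 fold changes against vehicle at 48 h come from all 30 arrays unless a value is said to leave this one out.

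The cultures carried hepatocyte markers: all 7 of the 7 on the array passed the filter, and their summed signal ranged from 278035 to 316355 in 200 µM wells, 297295 to 341405 in 8 µM wells and 278966 to 406741 in vehicle wells at 48 h. The sum hides differences between these markers. Over all arrays Tat ranged from 4213 to 20308 and Cyp2c11 from 1410 to 22825. Both, and Cps1, had a limma adjusted p below 0.05 in all 4 comparisons with vehicle, and Serpina1 with both doses at 48 h. Alb, Apoa1 and Ttr did not pass in any. Markers of other liver cells were summed in the same way. The 6 Kupffer cell markers on the array all passed, with summed signals of 2388 to 2971 in 200 µM wells, 3718 to 4046 in 8 µM wells and 2973 to 4411 in vehicle wells at 48 h; 4 of 6 stellate cell markers passed, with 2754 to 3218, 3139 to 3617 and 3797 to 6348 in the same 3 groups. Of 4 bile duct markers, Epcam and Krt19 passed, with summed signals of 9572 to 10583, 10727 to 11947 and 9472 to 13215 in these groups; nearly all of this was Epcam (6558 to 12759 over all arrays, median 9502). All 4 endothelial markers passed, with 1019 to 1463, 1236 to 1689 and 1214 to 2840. The stellate markers Lrat and Pdgfrb and the bile duct markers Krt7 and Spp1 did not pass. The ratio of 3′ to 5′ actin signal, a measure of RNA integrity, averaged 3.10 ± 0.20 in 200 µM wells, 3.26 ± 0.42 in 8 µM wells and 2.61 ± 0.31 in vehicle wells at 48 h, and 3.31 ± 0.17, 3.10 ± 0.21 and 2.86 ± 0.28 in the same order at 24 h (SD, n = 5 each). The part of cell make-up and of RNA integrity in the results below was not tested, and in whole wells fewer cells of a type and less RNA per cell cannot be told apart.

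Fewer than 1 in 2 respiratory chain genes were called at 48 h, more of them higher than lower, and at 24 h few were called. Most of the subunit genes called higher at 48 h belonged to complexes I, II and III. These complexes also hold most of the 76 subunit genes (34, 4 and 8). A gene was called when its probe set of highest mean signal had a limma adjusted p below 0.05 over all 21282 probe sets tested. At 48 h, 27 of the 83 member genes were higher and 2 lower with 200 µM than with vehicle, where 16.1% of all 11545 genes were higher and 16.2% lower. At 8 µM and 48 h, 36 members were higher and 4 lower, where 16.2% of all genes were higher and 18.1% lower. Without vehicle well 4, the counts at 48 h became 21 higher and 8 lower of 82 with 200 µM (all genes 16.7% and 18.2%) and 27 higher and 7 lower with 8 µM (16.2% and 19.6%). The median log2 fold change of the 76 subunit genes at 48 h was 0.13 with 200 µM and 0.19 with 8 µM, against -0.05 and -0.06 over all genes; without that well the subunit medians were 0.041 and 0.090, against -0.0056 and -0.026. The comparisons of both doses at one time use the same vehicle wells. For the 40 genes named by rule, 72 calls were made. Median centring of the arrays, that of vehicle well 4 included, ended 45 of them, and a fit of only the groups compared ended 33. Of these genes, Uqcrh, Cox7a2l, Ndufa5, Uqcrq and Cox7b2 are not described below. Uqcrh and Cox7a2l were called higher with 8 µM at 48 h (0.21 and 0.19, limma adjusted p = 0.0467 and 0.0470). Those calls ended in 23 and 24 of 43 settings.

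At 24 h, 6 members were higher and 2 lower with 200 µM, where 11.1% of all genes were higher and 12.5% lower. With 8 µM at 24 h, 10 were higher and 2 lower, where 10.7% were higher and 13% lower. These shares are near or below those of all genes. Leaving out single arrays moved the 24 h counts by over 1.5 times. Without vehicle well 4 at 48 h, whose array enters the common estimate of the spread, 14 members were higher and 4 lower with 200 µM (all genes 13.9% and 15.6%), and 20 higher and 2 lower with 8 µM (13.3% and 16.4%). Without vehicle well 1 at 24 h, 3 members were called in all with 200 µM and 7 with 8 µM; the count with 200 µM was also 3 without treated well 2, and 4 without vehicle well 2, treated well 1 or treated well 3.

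**Figure D1:**
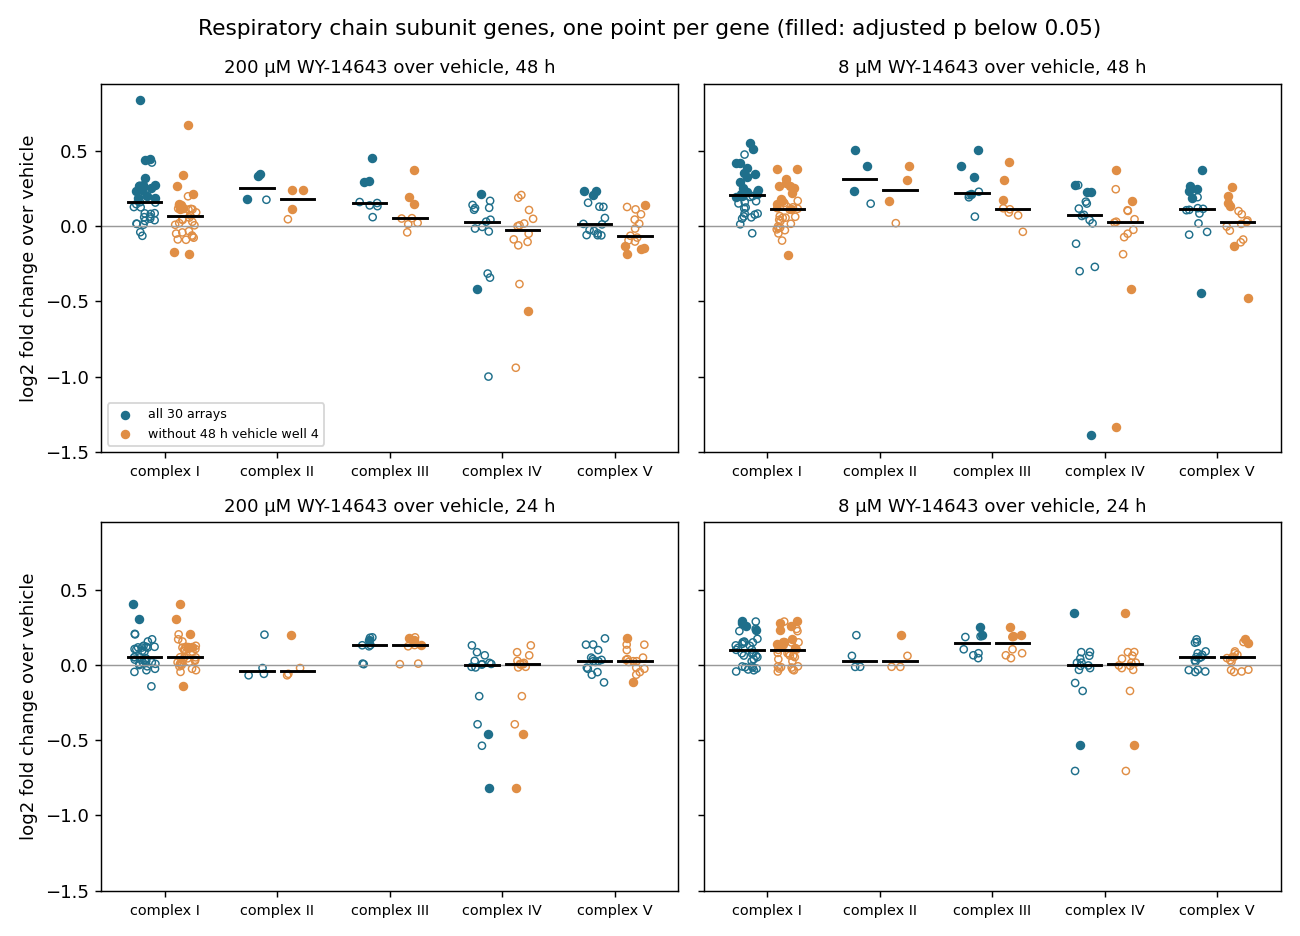
Log2 fold change over vehicle (y axis) of each subunit gene in complexes I to V (x axis), for 200 µM (left) and 8 µM (right) at 48 h (top) and 24 h (bottom); blue points use all 30 arrays, orange points leave out vehicle well 4 at 48 h, filled points had an adjusted p below 0.05 and black bars are medians. At 48 h the blue medians of complexes I, II and III lie at 0.16, 0.26 and 0.16 with 200 µM, and those of complexes IV and V at 0.029 and 0.015.

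Complex II had the highest median of the 5 complexes at 48 h. With 200 µM, 13 of 34 complex I genes, 3 of 4 complex II genes and 3 of 8 complex III genes were higher and none was lower, 1 of 15 complex IV genes was higher and 1 lower, and 3 of 15 complex V genes were higher and none lower, where 16.1% of all genes were higher and 16.2% lower. With 8 µM the genes called higher were 17, 3, 4, 3 and 5 for complexes I to V, and 1 gene each of complexes IV and V was lower (all genes 16.2% and 18.1%). The medians with 8 µM at 48 h were 0.21, 0.31, 0.22, 0.075 and 0.11. Without vehicle well 4 the medians with 200 µM were 0.064, 0.18, 0.051, -0.026 and -0.064, so those of complexes IV and V changed sign, and the medians with 8 µM were 0.11, 0.24, 0.11, 0.026 and 0.028. The counts higher in complexes I to V were then 10, 3, 3, 0 and 1 with 200 µM, with 2, 0, 0, 1 and 4 lower, and 12, 3, 3, 2 and 4 with 8 µM, with 1, 0, 0, 2 and 2 lower.

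**Figure D2:**
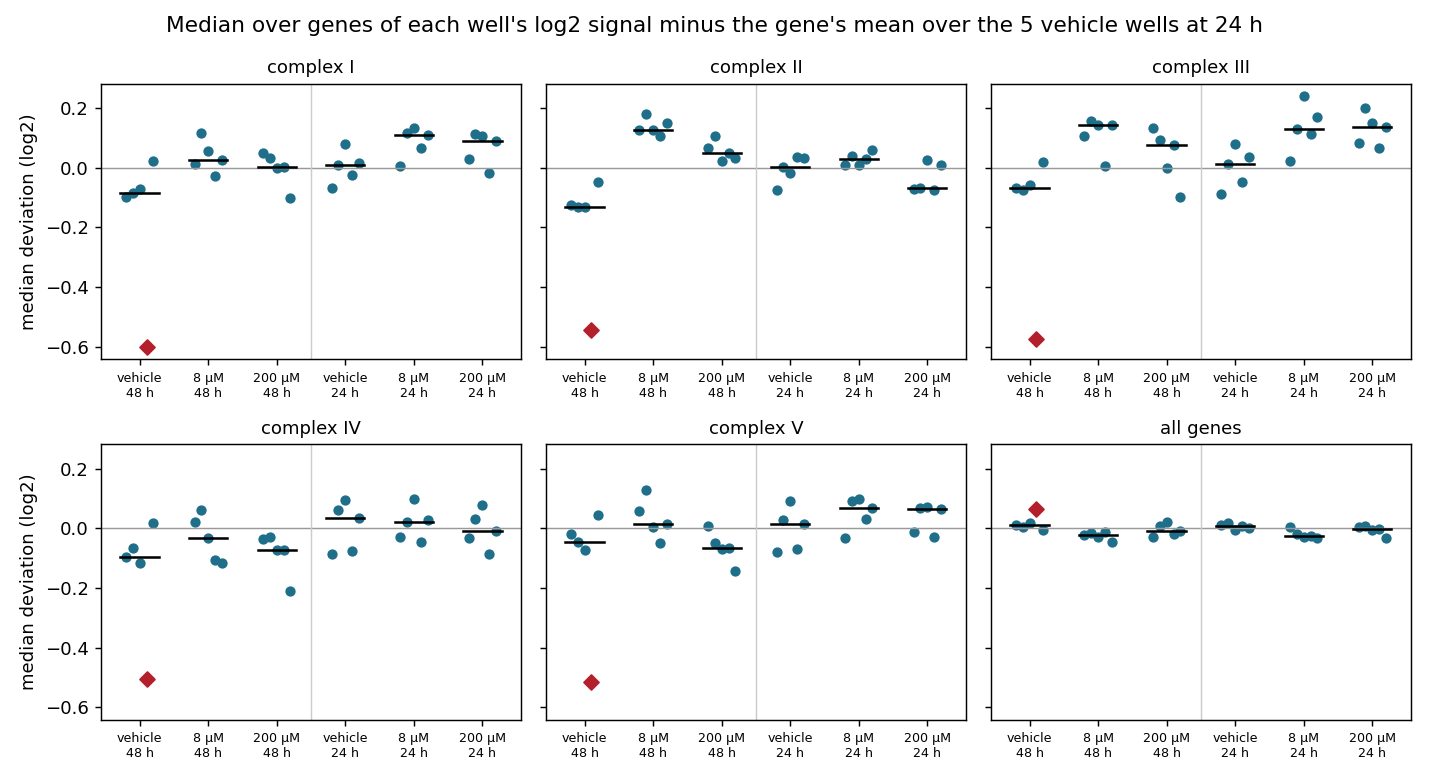
Each point is 1 well: the median, over the genes of a complex or over all genes, of the log2 signal minus the gene's mean in the 5 vehicle wells at 24 h (y axis), by group (x axis: vehicle, 8 µM and 200 µM at 48 h, then at 24 h); bars are group medians and the red diamond is vehicle well 4 at 48 h. In complex II the 48 h wells lie between 0.11 and 0.18 with 8 µM, between 0.022 and 0.11 with 200 µM and between -0.13 and -0.049 in the 4 other vehicle wells, with the red diamond at -0.55.

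In complex I, 7 of the 32 subunit promoters found in the RefSeq table (GRCr8) hold the letters AAGATGGCG, the core of a site for the factor YY1, on either strand, against 1.93% of the 27457 promoters in that table. Promoters there run from 250 bases before to 50 after the annotated start. The 7 matches are shown because the feature is shared by several members and was not used to choose them. Each line gives the 9 matched bases in capitals with 10 bases on either side, on the gene's strand. All 7 matches are on that strand and lie after the annotated start, beginning at bases 5 to 27 counted from it.
Ndufs4 (chr2:47794892-47794920, minus strand): tgcccacaggAAGATGGCGgcggtctcaa
Ndufs7 (chr7:10110476-10110504, minus strand): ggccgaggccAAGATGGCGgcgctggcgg
Ndufs6 (chr1:31797413-31797441, plus strand): ggtcgtcggcAAGATGGCGgcggcgctga
Ndufb8 (chr1:253362897-253362925, minus strand): ggagaaggtgAAGATGGCGgcgtcccggg
Ndufa2 (chr18:28631840-28631868, minus strand): tttgctagcaAAGATGGCGgccgcaagcc
Ndufa6 (chr7:115750284-115750312, minus strand): cttccttagcAAGATGGCGgccgcggcca
Ndufa9 (chr4:161374142-161374170, minus strand): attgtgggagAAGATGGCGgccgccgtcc
At 48 h, 3 of these 7 genes were called higher with 200 µM (Ndufs4, Ndufs7 and Ndufa6) and 2 with 8 µM (Ndufs7 and Ndufa6), against 13 and 17 of all 34 complex I genes. Ndufs6, Ndufa2 and Ndufa9 were not called in any of the 4 comparisons with all arrays, and Ndufa2 was lower at 48 h without vehicle well 4 (-0.18 and -0.19). Ndufb8 was called with 200 µM at 24 h. Over the 68 of 76 subunit genes with a promoter in the table, YY1 letters were in 10, the NRF1 core GCGCATGCG in 5 (7.35%, against 1.66% of all promoters), the ETS core CCGGAAGT in 8 (11.8%, against 4.01%) and the ERR element TCAAGGTCA in 2, Sdhd and Atp5mc3 (2.94%, against 0.412%). The PPAR repeat AGGTCANAGGTCA was in none of the 68, and in 0.0583% of all promoters. YY1 letters were in none of the 4 complex II promoters and none of the 12 complex IV promoters found. All motifs were searched on both strands, and a match is only a description of the letters.

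Complex I collects electrons from NADH through its peripheral arm and pumps protons through its membrane arm. Ndufs1, which carries iron-sulfur clusters of the peripheral arm, gave signals of 8624, 8150.4, 8113, 8372 and 8680.0 in 200 µM wells at 48 h, against 6838, 6782, 6839.9, 4548 and 6110.0 in vehicle wells. Every treated well lay above every vehicle well. The log2 fold change was 0.45 ± 0.08 (SE; 1.36-fold, limma adjusted p = 2.38e-05) with 200 µM and 0.42 ± 0.08 (adjusted p = 5.41e-05) with 8 µM, and 0.34 and 0.31 without vehicle well 4. At 24 h its signals overlapped with those of vehicle, with log2 fold changes of 0.05 and 0.15.

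Ndufs7, another iron-sulfur subunit close to the ubiquinone site, was higher with both doses at 48 h. It gave 26327, 27598, 26263, 23889 and 25436 in 8 µM wells at 48 h, against 19015, 19671, 20066, 12682 and 20777 in vehicle wells, without overlap. The log2 fold change was 0.51 ± 0.08 with 8 µM (adjusted p = 9.93e-06; 0.38 without vehicle well 4) and 0.27 ± 0.08 with 200 µM (adjusted p = 0.0128; 0.14 without it, adjusted p = 0.0258). At 24 h it was 0.28 ± 0.08 with 8 µM (adjusted p = 0.0132) and 0.12 ± 0.08 with 200 µM, which did not pass. Directly between the doses at 48 h, 200 µM minus 8 µM was -0.24 ± 0.08 (adjusted p = 0.138), and -0.24 ± 0.05 without that well (adjusted p = 0.00101).

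Ndufs4, a subunit needed for a stable peripheral arm, had the largest complex I rise, with 200 µM at 48 h. Its signals in 200 µM wells at 48 h were 11871, 9754, 7908, 7951 and 7388, against 6341, 5083, 5046, 3152 and 5767 in vehicle wells. The groups did not overlap, although the treated wells spread widely (8974 ± 1851, SD, n = 5). The log2 fold change was 0.83 ± 0.18 (1.78-fold, adjusted p = 0.000422; 0.67 without vehicle well 4, adjusted p = 0.00244). The 8 µM wells gave 5456, 4965, 6918, 5664 and 6148, and their log2 fold change of 0.23 ± 0.18 did not pass (adjusted p = 0.367). The difference between doses at 48 h was 0.61 ± 0.18 (adjusted p = 0.0546), and it passed without vehicle well 4 (adjusted p = 0.0171).

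Ndufab1, the mitochondrial acyl carrier protein that also serves as a complex I subunit, was the complex I gene called higher in all 4 comparisons. Its wells read 22531, 21734, 19335, 20081 and 19496 with 200 µM at 48 h, against 16956, 17298, 17037, 9515 and 17125 with vehicle. With 8 µM at 48 h they read 23237, 22988, 22155, 21126 and 22014. The log2 fold changes at 48 h were 0.44 ± 0.10 with 200 µM and 0.55 ± 0.10 with 8 µM (adjusted p = 0.000885 and 4.39e-05), and 0.27 and 0.38 without vehicle well 4. At 24 h they were 0.30 and 0.29 (adjusted p = 0.0261 and 0.0346), again with no overlap. The call with 200 µM at 24 h was lost without vehicle well 1 (adjusted p = 0.0642), vehicle well 2 (0.0520) or treated well 2 (0.0571), and that with 8 µM without vehicle wells 1 (0.0808), 2 (0.0658) or 4 (0.0636) or treated wells 2 (0.0820), 3 (0.0757), 4 (0.0513) or 5 (0.0659).

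Membrane arm subunits were among those higher with 8 µM at 48 h. Ndufb10 averaged 23080.3 ± 853 in 8 µM wells, against 19164 ± 831 in the other 4 vehicle wells (log2 fold change 0.39 ± 0.08 with all arrays, adjusted p = 0.000181; 0.27 without vehicle well 4). Ndufc1 averaged 35468 ± 1710.3, against 29469 ± 1969 (0.35 ± 0.07, adjusted p = 0.000162; 0.27). In both genes all 8 µM wells lay above all vehicle wells. Ndufv1, which holds the NADH site, was higher by 0.29 ± 0.08 with 8 µM (adjusted p = 0.00534; 0.18 without vehicle well 4). Its rise with 200 µM, 0.23 (adjusted p = 0.0306), was lost without vehicle well 4 (adjusted p = 0.123) or without any of treated wells 1, 2, 4 and 5 (adjusted p from 0.0503). Ndufb8 was called with 200 µM at 24 h, with 6128, 5046, 4489.7, 4428 and 4944 in treated wells, against 4267, 3655, 3984, 3677 and 3253 in vehicle wells (0.41 ± 0.12, adjusted p = 0.011), and the call was lost without treated well 1 (0.33, adjusted p = 0.0542).

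Probe sets of one complex I gene did not always read alike. Second probe sets of Ndufa7 and Ndufv3, looked up after their values were seen, were higher in all 4 comparisons, while the brighter probe set of each passed with 8 µM at 48 h and in no other comparison. For Ndufa7 the second probe set changed by 0.56 and 0.47 at 48 h and by 0.43 and 0.48 at 24 h (200 µM, then 8 µM), and for Ndufv3 by 0.42 and 0.60 at 48 h and by 0.33 and 0.39 at 24 h. The highest of the adjusted p with all arrays was that of Ndufv3 with 200 µM at 24 h (0.0168), and it was 0.0765 without vehicle well 4 at 24 h. Both genes are counted above from the brighter probe set alone.

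Complex II oxidises succinate and is also an enzyme of the citrate cycle. Its catalytic flavoprotein subunit, Sdha, gave 12998, 13699, 12969, 13079.5 and 13591 in 200 µM wells at 48 h, against 10977, 11073, 11205, 7822 and 11619.9 in vehicle wells. In 8 µM wells at 48 h it gave 14439, 15619.8, 14609.6, 14061 and 15334, so that neither dose overlapped with vehicle. The log2 fold changes at 48 h were 0.35 ± 0.07 with 200 µM and 0.50 ± 0.07 with 8 µM (adjusted p = 0.0002 and 4.91e-07), and 0.24 and 0.40 without vehicle well 4. At 24 h the wells overlapped and the log2 fold changes were -0.02 and 0.06.

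The effect on Sdha differed between the times. The 48 h effect minus the 24 h effect was 0.44 ± 0.10 with 8 µM (adjusted p = 0.00911) and 0.37 ± 0.10 with 200 µM (adjusted p = 0.0467). With 8 µM it stayed below 0.05 whichever array was left out, and was 0.34 (adjusted p = 0.000384) without vehicle well 4. Median centring and a fit of only the groups compared each ended the call with 8 µM (adjusted p up to 0.454). With 200 µM leaving out any of 23 of the 30 arrays took it past 0.05 (adjusted p 0.0519 to 0.0961), and without vehicle well 4 it was 0.26 (adjusted p = 0.00773). Sdha was the single member called in each of these comparisons, where 2.04% of all genes were called with 200 µM and 2.46% with 8 µM. Without vehicle well 4, Uqcrc2 and Ndufs1 were also called with 200 µM (3.63% of all genes) and Uqcrc2 with 8 µM (4.27%).

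Of the membrane anchors of complex II, Sdhd gave 28717, 30081, 28349, 29585 and 28114 in 200 µM wells at 48 h, against 22533, 24457, 23708, 17892 and 27665 in vehicle wells, without overlap. Its log2 fold changes were 0.33 ± 0.08 with 200 µM and 0.40 ± 0.08 with 8 µM (adjusted p = 0.00104 and 0.000104), and 0.24 and 0.31 without vehicle well 4; its second probe set was also called with both doses. Sdhc, the other anchor, rose by 0.18 and 0.23 (adjusted p = 0.0167 and 0.00214; 0.12 and 0.17 without that well). Sdhb, the iron-sulfur subunit, gave 0.17 and 0.15 and did not pass (adjusted p = 0.107 and 0.17; 0.05 and 0.02 without that well). None of the 4 subunits was called at 24 h with all arrays; Sdhd was at 0.20 with each dose (adjusted p = 0.0635 and 0.0681), and passed without vehicle well 4 at 48 h (adjusted p = 0.00754 and 0.0086).

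Sdhaf1, an assembly factor that protects the iron-sulfur subunit while complex II is built, had the largest rise of all members. It gave 11338, 10741, 10956, 12108 and 12748 in 200 µM wells at 48 h, against 5759, 6437, 5815, 3555 and 6164 in vehicle wells. At 24 h the 200 µM wells gave 12515, 11140.5, 12777, 13438 and 11538, against 6561, 5892, 6846, 5641 and 6864 in vehicle wells. The groups lay far apart at both times, and the 8 µM wells, with means of 10296 ± 1364 at 48 h and 12208 ± 680.0 at 24 h, lay with the 200 µM wells. The rise was 2.12-fold with 200 µM and 1.88-fold with 8 µM at 48 h, and 1.93-fold and 1.92-fold at 24 h. Its log2 fold changes of 1.09, 0.91, 0.95 and 0.94 (SE 0.11 each) had adjusted p of 5.84e-10, 2.21e-08, 1.56e-08 and 1.56e-08. Those at 48 h were 0.93 and 0.76 without vehicle well 4. The doses did not differ detectably (0.18 ± 0.11 at 48 h, adjusted p = 0.583; 0.01 ± 0.11 at 24 h, adjusted p = 0.996).

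The promoter of Sdhaf1 in the RefSeq table (chr1:94704562-94704861, minus strand, GRCr8) is shown because this gene had the largest rise. None of the 5 motifs searched is in these 300 bases, so no letters are in capitals, and nothing about any factor follows from that.
Sdhaf1: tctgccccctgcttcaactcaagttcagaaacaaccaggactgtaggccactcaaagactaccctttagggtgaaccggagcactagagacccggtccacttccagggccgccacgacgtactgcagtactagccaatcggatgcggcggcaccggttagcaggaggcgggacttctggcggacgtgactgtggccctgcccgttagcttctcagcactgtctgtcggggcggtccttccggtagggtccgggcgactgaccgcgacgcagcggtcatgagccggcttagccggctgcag

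The other complex II assembly factors changed less. Sdhaf3 was higher at 48 h by 0.29 ± 0.08 with 200 µM and 0.35 ± 0.08 with 8 µM (adjusted p = 0.00539 and 0.000998; 0.18 and 0.24 without vehicle well 4). At 24 h it was called with 200 µM (0.23, adjusted p = 0.0433), lost without any of 8 wells (adjusted p up to 0.132), and with 8 µM (0.25, adjusted p = 0.0239), lost without vehicle well 1 (0.0820) or treated well 3 (0.0576). Sdhaf4, which helps to insert the flavoprotein, was higher than in vehicle wells with 200 µM, by 0.23 ± 0.06 at 48 h (adjusted p = 0.00434; 0.16 without vehicle well 4) and by 0.18 ± 0.06 at 24 h (adjusted p = 0.0338), and in both cases without overlap. The 48 h call was lost with median centring (adjusted p = 0.0576) and in a fit of only the groups compared (adjusted p = 0.0620), and the 24 h call without any of vehicle wells 1, 2 and 3 or treated wells 1, 2 and 3 (adjusted p 0.0523 to 0.0865). With 8 µM it was not called at either time. It gave 6405, 6503, 6420.3, 5961 and 6031 in 200 µM wells at 24 h, against 5617, 5575, 4962, 5613 and 5064 in 8 µM wells. The difference between the doses, 0.22 ± 0.06 (adjusted p = 0.0497), was the one call among members between the doses at 24 h, where 2.68% of all genes were called. It was lost when any of 27 arrays was left out (adjusted p 0.0513 to 0.164), and without vehicle well 4 its adjusted p was 0.0024. Without that well Ndufs7 was also called, lower with 200 µM than with 8 µM (-0.16), where 5.25% of all genes were called.

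**Figure D3:**
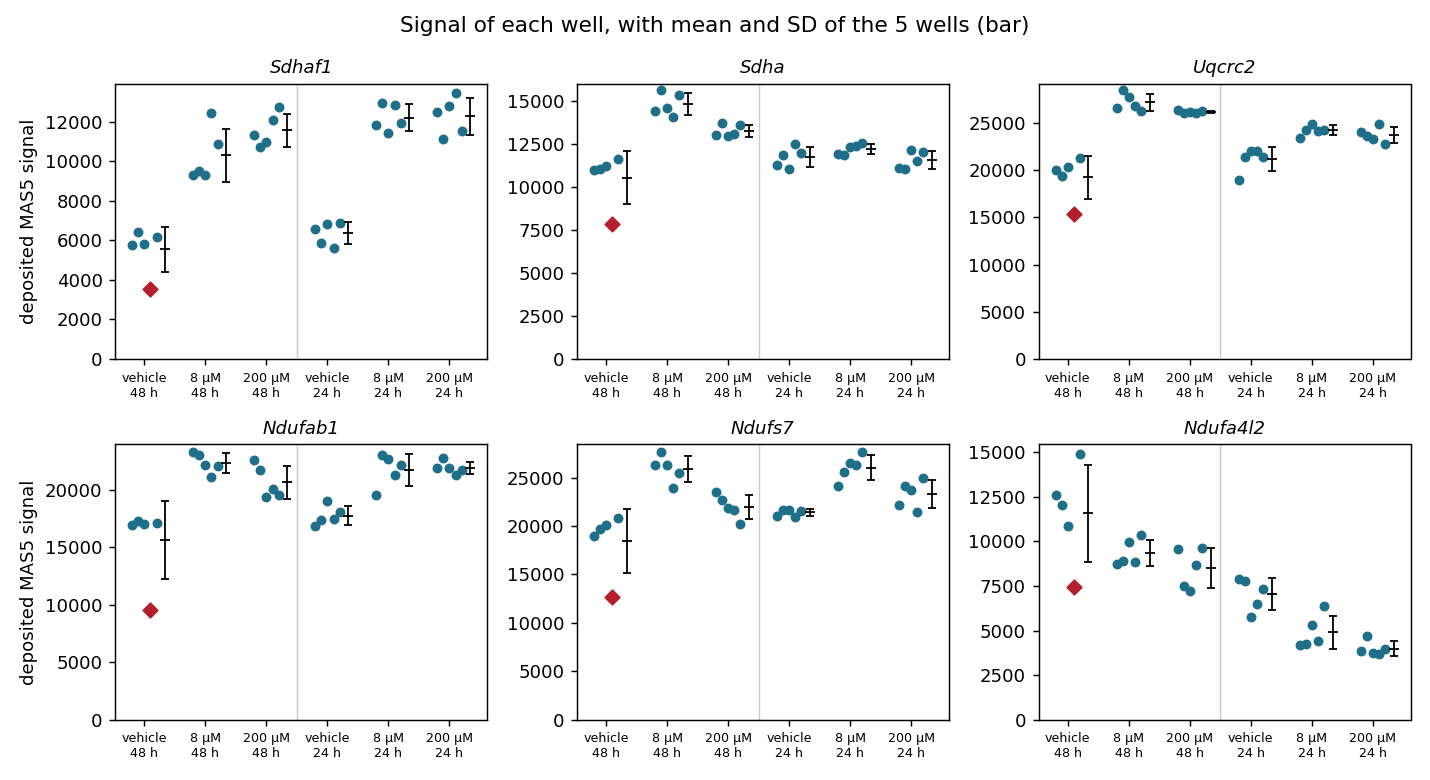
Deposited signal (y axis, linear) in each well for Sdhaf1, Sdha, Uqcrc2, Ndufab1, Ndufs7 and Ndufa4l2, by group (x axis: vehicle, 8 µM and 200 µM at 48 h, then at 24 h); the bar beside each group is the mean with its SD over 5 wells, and the red diamond is vehicle well 4 at 48 h. Sdhaf1 lies between 9324 and 13438 in treated wells and between 3555 and 6864 in vehicle wells; Ndufa4l2 is lower with both doses than with vehicle at 24 h.

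In complex III, the core subunit Uqcrc2 rose with both doses at 48 h. It gave 26335, 26024, 26135, 26085 and 26250.4 in 200 µM wells, against 19969, 19432, 20303, 15329.6 and 21263 in vehicle wells. In 8 µM wells it gave 26625, 28510.2, 27742, 26791 and 26249.7, so all treated wells lay above all vehicle wells and the 200 µM wells differed by little among themselves. The log2 fold changes were 0.45 ± 0.06 and 0.51 ± 0.06 (1.37-fold and 1.42-fold, adjusted p = 3.81e-07 and 3.55e-08), and 0.37 and 0.43 without vehicle well 4. At 24 h they were 0.17 and 0.20 (adjusted p = 0.0493 and 0.0166). The call with 200 µM at 24 h was lost when any of 25 arrays was left out (adjusted p 0.0509 to 0.181), and that with 8 µM without vehicle well 1 (0.16, adjusted p = 0.0766). A second, dimmer probe set of Uqcrc2 was not called in any of the 4 comparisons (0.14, 0.07, 0.22 and 0.13 for 200 µM and 8 µM at 48 h and then at 24 h).

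Uqcrfs1, the Rieske iron-sulfur protein, gave 35020.5, 36496, 35547, 32893 and 35124 in 8 µM wells at 48 h, against 28317, 28537, 28235, 20222 and 28366 in vehicle wells. The log2 fold change was 0.40 ± 0.07 with 8 µM and 0.29 ± 0.07 with 200 µM (adjusted p = 1.24e-05 and 0.000853; 0.30 and 0.20 without vehicle well 4), and 0.25 with 8 µM at 24 h (adjusted p = 0.00521). Cyc1, the cytochrome that hands electrons to cytochrome c, was higher by 0.30 ± 0.09 and 0.33 ± 0.09 at 48 h (adjusted p = 0.0157 and 0.00715), with no overlap between treated and vehicle wells. These came to 0.14 and 0.17 without vehicle well 4 (adjusted p = 0.0298 and 0.00797). Both calls were lost with median centring (adjusted p = 0.0910 and 0.0537) and in a fit of only the groups compared (adjusted p = 0.156 and 0.108). Uqcrc1, the partner core subunit of Uqcrc2 and named after its values were seen, gave 0.13 and 0.19 and did not pass (adjusted p = 0.229 and 0.065; 0.01 and 0.07 without that well).

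Few complex IV genes were called, and the one with the smallest adjusted p was lower. Ndufa4l2, a paralog of the complex IV subunit Ndufa4 that is known to be raised by hypoxia, gave 3853, 4705, 3717, 3673 and 3988 in 200 µM wells at 24 h, against 7907, 7799, 5768, 6488 and 7303 in vehicle wells. Every treated well lay below every vehicle well, and the log2 fold change was -0.82 ± 0.13 (adjusted p = 1.15e-05). With 8 µM at 24 h it was -0.53 ± 0.13 (adjusted p = 0.00274). At 48 h it was -0.42 with 200 µM (adjusted p = 0.0159) and -0.27 with 8 µM (adjusted p = 0.124), and -0.57 and -0.42 without vehicle well 4 (adjusted p = 0.0002 and 0.00437). The 48 h call with 200 µM was lost without treated well 3 (-0.36, adjusted p = 0.0543) or vehicle well 5 (-0.32, adjusted p = 0.0707). Ndufa4 itself was higher at 48 h with 8 µM, by 0.27 ± 0.08 (adjusted p = 0.00723; 0.17 without vehicle well 4), and its rise of 0.21 with 200 µM was lost without vehicle wells 1 or 4 or treated wells 1, 2, 3 or 4 (adjusted p 0.0510 to 0.143).

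The core subunit Cox4i1 gave 55654, 54663, 51741, 52485 and 47807 in 200 µM wells at 48 h, against 55027, 57498, 53892, 39921 and 59144 in vehicle wells, overlapping throughout. Its log2 fold changes were -0.01 and 0.07 at 48 h (-0.10 and -0.02 without vehicle well 4, also not called) and -0.02 and 0.00 at 24 h, with SE 0.08. Cox6a1, Cox6b1 and Cox8a, the isoforms usual in liver, stayed between -0.02 and 0.15 in the 4 comparisons and none was called. Their alternative isoforms were dim: Cox6b2 and Cox8b did not pass the filter. Cox4i2, the lung-enriched isoform, read 381 ± 50.7 in 200 µM wells at 24 h, against 529 ± 46.0 in vehicle wells (-0.46 ± 0.16, adjusted p = 0.0412), a call lost without vehicle wells 1, 2, 4 or 5 or treated wells 2, 3, 4 or 5 (adjusted p 0.0532 to 0.0978). Cox6a2, the isoform of heart and skeletal muscle, read 119, 122, 409, 310.4 and 57.0 in 8 µM wells at 48 h, against 351, 369, 483, 538 and 579 in vehicle wells (-1.39 ± 0.45, adjusted p = 0.0184; -1.33 without vehicle well 4). The groups overlapped, and the call was lost without treated well 5 (-1.06, adjusted p = 0.0799). The 8 µM readings of 119, 122 and 57.0 lie below the filter level of 281, and every vehicle well at 48 h lies above it. The fold change of Cox6a2 thus rests partly on signals below the filter level, and its size is uncertain. Cox7a1 was not called in any of the 4 comparisons. Cox5a was called with 8 µM at 24 h (0.35 ± 0.11, adjusted p = 0.0266), with overlapping wells, and lost without vehicle well 1, 4 or 5 or treated well 3 or 4 (adjusted p 0.0677 to 0.0922).

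In complex V, the genes called higher at 48 h were mostly those of the peripheral stalk, which holds the catalytic head still: Atp5pd, Atp5pf and Atp5po with 200 µM (log2 fold changes 0.21, 0.24 and 0.23), and these with Atp5pb and Atp5mc3 with 8 µM. The other kept probe set of Atp5po was at -0.68 with 200 µM and was not called (adjusted p = 0.202). Leaving out vehicle well 4 ended the calls of Atp5pd and Atp5pf with 200 µM (adjusted p = 0.0933 and 0.169) and of Atp5po with 8 µM (adjusted p = 0.134). Leaving out any of 2, 4 and 4 other wells of the groups compared also ended them (adjusted p 0.0508 to 0.103). Atp5me, a small membrane subunit and the one called lower with 8 µM (-0.44, adjusted p = 0.0442; -0.48 without vehicle well 4), had overlapping wells and was lost without any of vehicle wells 1, 2 and 3 or treated wells 1, 2, 3 and 5 (adjusted p 0.0678 to 0.118). Its other kept probe set was not called. The call was also lost for the mean of its kept probe sets, with median centring, without the filter, without the variance trend and in a fit of only the groups compared. Atp5pf, the coupling factor of the peripheral stalk, gave 26380.4, 26693, 29010.1, 23655 and 24018 in 8 µM wells at 48 h, against 20564, 21476, 21335, 14827 and 23008 in vehicle wells, without overlap. Its log2 fold change was 0.37 ± 0.09 (adjusted p = 0.00111; 0.26 without vehicle well 4, adjusted p = 0.00272). Atp5pb, another subunit of that stalk, rose by 0.25 with 8 µM (limma adjusted p = 0.000684), and by 0.20 without that well. Atp5mc3, which encodes the proton-carrying ring, rose by 0.26 (limma adjusted p = 0.0131), and by 0.15 without that well. The catalytic subunit Atp5f1b averaged 32929 ± 1315 in 200 µM wells at 48 h, against 36495 ± 809.6 in the other 4 vehicle wells. All treated wells lay below those 4, and the log2 fold change was -0.15 ± 0.04 without vehicle well 4 (adjusted p = 0.0109) and -0.05 ± 0.07 with it (adjusted p = 0.669). Atp5f1e, Atp5mf and Atp5mk were also called lower with 200 µM without that well (-0.13, -0.19 and -0.15) and not with it; these 4 genes were named after their values were seen.

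Atp5if1, the inhibitor that blocks hydrolysis of ATP by complex V, was lower with 8 µM; it lies outside the rule for named genes and was added after its values were seen. Its brightest probe set gave 11594, 11649, 13271, 11369 and 10708 in 8 µM wells at 48 h, against 15650.0, 17466, 16200.5, 12012 and 16416 in vehicle wells. With vehicle well 4 left out the groups did not overlap. The log2 fold change was -0.40 ± 0.07 (adjusted p = 4.96e-05; -0.49 without that well) with 8 µM and -0.12 ± 0.07 with 200 µM (adjusted p = 0.229; -0.21 without it, adjusted p = 0.00368). At 24 h it was -0.23 with 8 µM (adjusted p = 0.0207; 0.0641 without vehicle well 3). The 200 µM wells at 48 h gave 14644, 14654, 14346, 14560.1 and 12729. Set against 8 µM, the difference was 0.28 ± 0.07 (adjusted p = 0.0259; 0.000775 without that well), the one member called between doses at 48 h, where 4.15% of all genes were called. That difference was lost without any of 8 µM wells 1, 2, 4 and 5 or 200 µM wells 1, 2, 3 and 4 (adjusted p up to 0.0868). The other 2 probe sets of Atp5if1 gave -0.32 and -0.35 with 8 µM at 48 h and were not called. Between the doses at 48 h, 5 further members were called without vehicle well 4 (7.89% of all genes): Ndufs4 was higher with 200 µM, and Ndufs7, Ndufc1, Sdha and Atp5f1b were lower by -0.24, -0.20, -0.16 and -0.16.

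Cox6c-ps1, annotated as a pseudogene of a complex IV subunit, was lower at 48 h. It read 906, 787, 731, 630.1 and 779 in 8 µM wells, against 1001, 1015, 1010.1, 2461 and 1152 in vehicle wells, with no overlap (-0.69 ± 0.17, adjusted p = 0.00247; -0.45 without vehicle well 4, adjusted p = 0.00719). Its signal cannot be told apart from that of the parent gene where probes match both. With 200 µM it gave -0.46 (adjusted p = 0.0481), and -0.21 without that well (adjusted p = 0.23); leaving out any of 18 arrays took this call past 0.05 (adjusted p up to 0.23).

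In vehicle wells alone, the later time was compared with the earlier one. With all arrays 1 member was higher and 6 were lower at 48 h than at 24 h, where 8.36% of all genes were called. Ndufa4l2 was the one that rose, with 12572, 12049.7, 10879, 7426 and 14859 at 48 h, against 7907, 7799, 5768, 6488 and 7303 at 24 h (0.69 ± 0.13, adjusted p = 0.000663; 0.84 without well 4). The 6 that fell were Ndufs1 (-0.29), Ndufv1 (-0.27), Ndufv2 (-0.25), Sdhb (-0.30), Sdhc (-0.25) and Ndufa4 (-0.30). Without well 4 at 48 h these were -0.18, -0.15, -0.14, -0.17, -0.19 and -0.19, and all but Ndufv1 were still called, where 9.54% of all genes were called. The count of all members called became 17 without vehicle well 5 at 48 h and 3 without vehicle well 3 at 24 h; Ndufs1 (adjusted p = 0.0596) and Sdhb (adjusted p = 0.0546) were among those lost without the well at 24 h.

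Around the chain, the fatty acid oxidation genes that feed it had the largest medians of the lists. Of 16 mitochondrial fatty acid oxidation genes, 15 were higher in each of the 4 comparisons, with medians of 1.42 and 1.58 at 48 h and 1.20 and 1.28 at 24 h (200 µM, then 8 µM); Echs1 was the one not higher, and was called lower in all but the 8 µM comparison at 48 h, where it passed without vehicle well 4 (-0.18, adjusted p = 0.0172). Apart from Echs1, the genes named in these lists that were called at 48 h with all arrays kept their direction and their call without that well. Acadm, the medium-chain dehydrogenase that passes electrons to the electron transfer flavoproteins, was higher by 2.15 and 2.26 at 48 h (SE 0.07; adjusted p = 1.19e-22 and 1.95e-23), and Cpt1a, which admits fatty acids to the mitochondrion, by 2.97 and 2.84. Of 8 dehydrogenases and flavoproteins linked to ubiquinone, 5 were higher at 48 h with each dose, and 3 were lower with 200 µM and 2 with 8 µM, counts that were the same without vehicle well 4. Over all genes, 16.1% and 16.2% were higher and 16.2% and 18.1% lower at 48 h (200 µM, then 8 µM). At 24 h, 11.1% and 10.7% of all genes were higher. Gpd2, the mitochondrial glycerol phosphate dehydrogenase, rose by 2.75 and 3.03 at 48 h, Etfdh, which hands electrons of fatty acid oxidation to ubiquinone, by 0.85 and 1.08, and Etfb by 0.63 and 0.82. For comparison, the subunits Uqcrc2 and Ndufab1 had changed by 0.45 and 0.44 with 200 µM and by 0.51 and 0.55 with 8 µM.

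**Figure D4:**
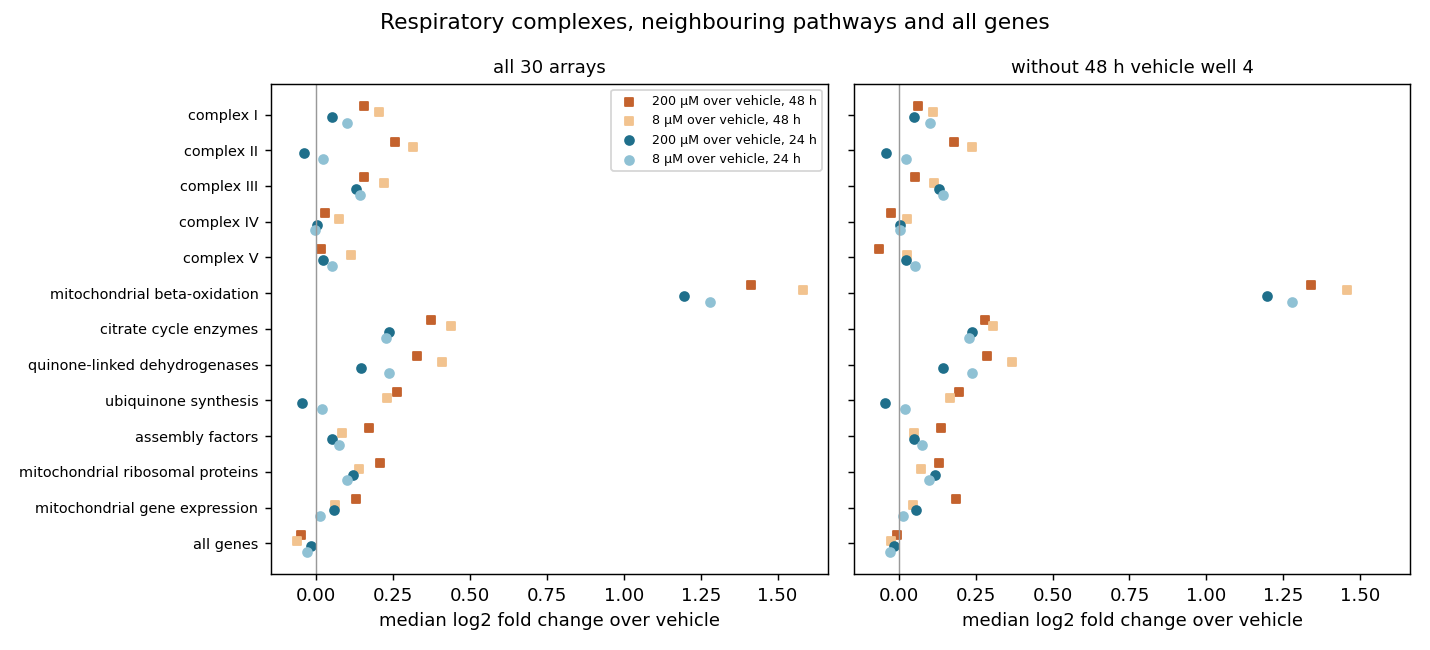
Median log2 fold change over vehicle (x axis) of complexes I to V, 7 neighbouring gene lists and all genes (y axis), with all 30 arrays (left) and without vehicle well 4 at 48 h (right); squares are 48 h and circles 24 h, dark for 200 µM and light for 8 µM. Fatty acid oxidation lies between 1.20 and 1.58 with all arrays, and every complex lies between -0.04 and 0.31.

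Of 11 citrate cycle enzymes outside complex II, 7 were higher and none lower at 48 h with each dose (medians 0.37 and 0.44; 0.28 and 0.31 without vehicle well 4). Cs, the first enzyme of the cycle, was higher by 0.49 and 0.65 at 48 h and 0.51 and 0.72 at 24 h, and Suclg1, which makes succinate, by 0.67 and 0.73 at 48 h. Of 39 assembly factors, 15 were higher and 1 lower with 200 µM at 48 h and 12 and 1 with 8 µM, where 16.1% and 16.2% of all genes were higher and 16.2% and 18.1% lower; without vehicle well 4 the counts were 13 and 4, and 12 and 1. Lrpprc, which stabilises mitochondrial messengers, rose by 0.57 and 0.51, Surf1, a complex IV factor, by 0.47 and 0.50, and Uqcc1, a complex III factor, by 0.47 and 0.48. Of 73 mitochondrial ribosomal proteins, 34 were higher and 2 lower with 200 µM at 48 h and 29 and 2 with 8 µM, with medians of 0.21 and 0.14 (0.13 and 0.073 without vehicle well 4, with 31 higher and 3 lower, and 24 higher and 6 lower).

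Among 12 genes of ubiquinone synthesis, 6 were higher with each dose at 48 h, and 2 were lower with 200 µM and 3 with 8 µM; without vehicle well 4, 4 and 6 were higher and 2 lower with each. Coq3 rose by 0.97 and 1.06 and Coq5 by 0.73 and 0.74, while Coq8a, a regulator of the pathway, fell (-0.30 and -0.56). Of 20 regulators of mitochondrial gene expression, 8 were higher and 4 lower with 200 µM and 6 and 4 with 8 µM at 48 h, and without vehicle well 4 the count lower with 8 µM was 2. Over all genes at 48 h, 16.1% were higher and 16.2% lower with 200 µM, and 16.2% and 18.1% with 8 µM. The counts of regulators lower are near these shares. Tfam, which packages mitochondrial DNA, was higher by 0.55 and 0.61 at 48 h and 0.53 and 0.61 at 24 h, Tfb2m, a transcription factor of that genome, by 0.93 and 0.96 at 48 h, and Polg2, the accessory subunit of its polymerase, was lower (-1.02 and -1.65 at 48 h). Of 5 mitochondrial carriers (Slc25a4, Slc25a5, Slc25a3, Ucp2 and Ucp3), 2 were higher in every comparison with vehicle. These were Ucp2, by 3.34 and 2.88 at 48 h, and Slc25a4, which exchanges ATP for ADP, by 0.69 and 0.63. Without vehicle well 4, 1 of the 5 carriers was called lower with 200 µM at 48 h, and none was with all arrays. The 2 subunits of complex IV read from mitochondrial DNA, COX1 and COX2, were not called with all arrays (-0.06 and -0.07 with 200 µM and 0.08 and 0.06 with 8 µM at 48 h), and COX1 was lower with 200 µM without vehicle well 4 (-0.16, adjusted p = 0.0303).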

How the data were processed

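Gene expression was measured on 30 Affymetrix arrays, 1 per well. The authors deposited 1 signal intensity per probe set and array on a linear scale, made with MAS5 per the submitters' processing notes; the MAS5 version and scaling target are not given in the sources used here. In the deposited values the 2% trimmed mean of each array lay between 1500.45 and 1500.7, so the arrays share one overall level. Arrays give no read depth; their number limits the precision.

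From these values log2(signal + 16) was computed, with no further normalization. A fold change is on this scale, which understates changes of dim genes. Probe sets at or above a signal of 281 (the 40th percentile) in at least 5 arrays were kept (21282 probe sets, 11545 genes). One limma model (limma 3.58.1 in R 4.3.3) with a mean per group and a trended variance was fitted to all 30 arrays, and 9 comparisons were tested with Benjamini-Hochberg adjustment over all kept probe sets at 0.05. Adjusted p-values in the text come from limma unless stated otherwise. A gene was read from its kept probe set of highest mean log2 signal. Gene symbols came from the platform annotation. Ndufa4 and Ndufa4l2 were placed with complex IV. Promoters came from RefSeq (GRCr8), which matched 74 of the 83 member genes and 68 of the 76 subunit genes.

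Named genes were, per complex, the 5 with the largest absolute moderated t against vehicle (all in complexes of 5 or fewer genes), genes called one way in all 4 comparisons with vehicle, the 3 largest rises and falls in each other comparison, tissue isoforms, genes whose kept probe sets passed in opposite directions, and 3 genes per neighbouring list. Of the list genes so chosen, Suclg2 and Acadvl are not described above, and Slc25a5 is given without values. Other genes are marked as chosen after their values were seen. The members and lists themselves were chosen with earlier results of these data known. The results were recomputed under 14 alternative settings, one of which left out each of the 30 arrays in turn. Figures were drawn with matplotlib 3.10.9 in Python 3.11.15.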

Additional observations from a re-analysis of the deposited data

Results flagged for a closer look

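The array of vehicle well 4 at 48 h lay far from the other 4 wells of its group in every complex. Relative to each gene's mean in the 5 vehicle wells at 24 h, its median log2 signal was -0.60 in complex I, -0.55 in complex II, -0.58 in complex III, -0.50 in complex IV and -0.52 in complex V. Of 40 named genes, 23 had this well as the one far from the other 4 of its group. In complex IV, 200 µM well 5 at 48 h also lay apart from its group, at -0.21.

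Chance alone sets 1 well apart in this way in about 1 of 20 groups. Among the 240 gene-and-group values of the named genes, 34 were set apart, the 23 above included. The others were spread over 9 wells: vehicle well 3 at 24 h and 200 µM well 4 at 24 h with 2 genes each, and vehicle well 1 at 24 h, 200 µM wells 4 and 5 at 48 h, 8 µM wells 2 and 4 at 48 h and 8 µM wells 2 and 3 at 24 h with 1 gene each.

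The effect on Sdha differed between the times by the interaction test in limma. The 48 h effect minus the 24 h effect was 0.37 with 200 µM and 0.44 with 8 µM on the log2 scale. Both calls were lost with median centring and in a fit of only the groups compared.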

How the results depend on the processing

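The limma counts of members called are given here for 9 comparisons in one order: 200 µM and 8 µM against vehicle at 48 h and then at 24 h, 200 µM against 8 µM at 48 h and at 24 h, the 48 h effect minus the 24 h effect of 200 µM and of 8 µM, and vehicle at 48 h against 24 h. As reported they were 29, 40, 8, 12, 1, 1, 1, 1 and 7. Pseudocounts of 1 and 64 left all 9 as they were. They were 41, 43, 24, 24, 7, 2, 5, 5 and 7 with quantile normalization, 39, 40, 30, 29, 8, 4, 7, 8 and 7 when vehicle well 4 at 48 h was left out as well, and 10, 21, 2, 1, 0, 0, 0, 0 and 0 with median centring. Median centring put the median of all genes at 0.12 and 0.13 with 200 µM and 8 µM at 48 h (-0.05 and -0.06 as reported), at 0.15 in both differences between times and at -0.13 in vehicle over time; the members' medians at 48 h were then 0.30 and 0.38. Of the members called at 48 h, 93.1% with 200 µM and 90% with 8 µM were higher as reported, 82.9% and 81.4% with quantile normalization, and 72.4% and 79.4% without vehicle well 4; with median centring all 10 called with 200 µM were higher. At 24 h median centring left 1 higher and 1 lower with 200 µM and 1 higher with 8 µM. Median centring with vehicle well 4 at 48 h left out gave other counts. At 48 h, 11 members were then higher and 5 lower with 200 µM, and 22 higher and 5 lower with 8 µM. At 24 h, 10 were higher and 2 lower with 200 µM, and 17 higher and 2 lower with 8 µM. The medians of all genes at 48 h were then -0.014 with 200 µM and -0.011 with 8 µM. Without the filter the counts were 25, 33, 5, 11, 1, 0, 0, 1 and 6, and with one at the 60th percentile 29, 42, 10, 13, 2, 1, 2, 2 and 9. Testing 1 value per gene gave 29, 41, 10, 12, 2, 1, 2, 2 and 8 for the brightest probe set and 30, 39, 11, 14, 1, 1, 2, 1 and 8 for the mean of the kept ones. A fit to only the groups compared gave 9, 19, 13, 18, 4, 1, 0, 0 and 1, one without the variance trend 24, 33, 4, 11, 0, 0, 0, 1 and 5, and array weights 30, 35, 15, 22, 6, 2, 3, 2 and 6. Leaving out single arrays gave 21 to 34, 30 to 47, 3 to 18, 7 to 22, 0 to 6, 0 to 2, 0 to 3, 1 to 3 and 3 to 17. Apart from the settings that use fewer arrays, the cause of these differences was not tested.

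With a replicate block, each block being a run of 6 consecutive array numbers that holds every group once, the counts were 29, 42, 9, 12, 1, 0, 1, 1 and 10. The array numbers are not stated to mark a shared batch. Over all kept probe sets, arrays of one run deviated together hardly more than others (median correlation of deviations 0.013 over 75 pairs within runs, against -0.0019 over 300 pairs between runs). That correlation does not single out the respiratory chain genes. In each group at 24 h, the median over the 76 subunit genes was lowest in wells 1 and 4 and highest in well 3. For vehicle these medians were -0.077, -0.046 and 0.082. The 48 h wells did not keep that order. Whether wells of one run share a batch was not tested for these genes. For the named genes, 72 calls were recomputed in 43 settings, which gave 3094 values: 2748 kept direction and threshold, 345 kept direction and lost the threshold, and 1 changed sign, Atp5po with 200 µM at 48 h, at -0.22 for the mean of its kept probe sets and 0.23 as reported. Besides median centring and the fit of only the groups compared, which ended 45 and 33 of these calls, dropping the variance trend ended 16, no filter 14, array weights 8 and the replicate block 3. The precision is set by 5 wells per group and, at 48 h, by a single vehicle array that reads bright genes low.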
